A study of Arabidopsis thaliana with 6 samples.

Results

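The 10 genes described here are the aliphatic glucosinolate genes *MYB28*, *MYB29*, *MYB76*, *BCAT4*, *MAM1*, *MAM3*, *CYP79F1*, *CYP79F2*, *CYP83A1* and *FMOGS-OX1*. They were chosen by locus, as the regulators and enzymes that make methionine-derived glucosinolates, and they are 10 of the 33602 genes in the count table. All 10 had counts in every library and all 10 passed the filter on low counts, as did 22182 genes in all. RNA-seq was performed on whole seedlings of *prp40c* (prp40c -/-, a T-DNA insertion mutant in the Col-0 ecotype, represented by a single allele) and of wild type (wt, Col-0), with 3 libraries of each genotype. The seedlings of both genotypes were untreated, were grown together on agar medium under continuous white light of 50 μmol per square metre and second at 22°C, and were harvested at 10 to 14 days. *PRP40C* encodes a protein related to splicing factors that associates with RNA polymerase II, and the experiment asked how its loss affects transcript levels and splicing.

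Glucosinolates are sulfur-rich thioglucosides that *Arabidopsis* and its relatives store against herbivores and pathogens, and that myrosinases break down when tissue is damaged. The aliphatic ones are built from methionine in a chain: the amino acid is first deaminated and its side chain is lengthened, then the core thioglucoside is assembled, and last the side chain is modified. *MYB28*, *MYB29* and *MYB76* are R2R3-MYB transcription factors that switch on these enzymes and act together with the bHLH proteins MYC2, MYC3 and MYC4. The indolic branch uses tryptophan, its own MYB factors and its own CYP79 and CYP83 enzymes.

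The promoters of 4 enzyme genes are shown, those of *CYP83A1* and *FMOGS-OX1* because they had the smallest adjusted p-values of the group, and those of *CYP79F1* and *CYP79F2* because these neighbours were compared with each other. Each sequence is the 250 bases before the gene start in the RefSeq annotation (TAIR10.1, whose nuclear chromosomes carry the same coordinates as TAIR10), written 5′ to 3′ on the strand of the gene. Capitals mark AC elements, which R2R3-MYB proteins can bind, and the G-box, a bHLH motif. The AC element was searched as the letters ACCTACC, with ACCAACC as its second form and with ACCTAAC as its remaining form. The G-box was searched as the letters CACGTG, and each motif was sought on both strands with no overlap between the kinds of motif in these promoters.
*CYP83A1* promoter (chr4:7992430-7992679, minus strand): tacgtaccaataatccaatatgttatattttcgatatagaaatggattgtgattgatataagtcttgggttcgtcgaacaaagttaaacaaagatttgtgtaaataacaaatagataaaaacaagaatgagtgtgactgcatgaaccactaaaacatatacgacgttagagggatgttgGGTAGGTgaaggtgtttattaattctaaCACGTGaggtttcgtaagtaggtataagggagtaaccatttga
*FMOGS-OX1* promoter (chr1:24502777-24503026, minus strand): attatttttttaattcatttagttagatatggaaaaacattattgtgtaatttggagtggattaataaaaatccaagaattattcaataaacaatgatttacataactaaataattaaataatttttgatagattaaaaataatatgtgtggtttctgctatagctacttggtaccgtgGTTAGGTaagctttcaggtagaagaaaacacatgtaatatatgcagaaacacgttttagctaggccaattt
*CYP79F2* promoter (chr1:5604794-5605043, plus strand): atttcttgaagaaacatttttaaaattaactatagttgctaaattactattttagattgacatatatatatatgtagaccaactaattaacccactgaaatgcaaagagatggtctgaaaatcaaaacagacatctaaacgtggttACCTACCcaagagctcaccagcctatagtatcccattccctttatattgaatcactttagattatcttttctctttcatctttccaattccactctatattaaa
*CYP79F1* promoter (chr1:5608432-5608681, plus strand): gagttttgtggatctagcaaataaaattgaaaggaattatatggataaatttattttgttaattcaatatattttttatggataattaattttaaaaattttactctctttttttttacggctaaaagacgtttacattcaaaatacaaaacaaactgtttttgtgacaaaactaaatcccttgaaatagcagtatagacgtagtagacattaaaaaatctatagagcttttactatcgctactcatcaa

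An AC element was found in 3 of the 10 promoters, and in 1679 of the 27443 promoters of protein-coding genes (6.12%). It began 71 bases before the gene start in *CYP83A1*, 71 bases before it in *FMOGS-OX1* and 104 bases before it in *CYP79F2*. The G-box was found in 1 of the 10, *CYP83A1*, where it began 43 bases before the gene start, and in 1780 promoters overall (6.49%). The promoters of *CYP79F1*, *BCAT4*, *MAM1*, *MAM3* and the 3 MYB genes held neither set of letters in this window. A match of letters is not a measured binding site.

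Several of these genes are close relatives that lie side by side. *CYP79F2* and *CYP79F1* are 1333 bases apart on chromosome 1, *MYB29* and *MYB76* are 1781 bases apart on chromosome 5, and *MAM1* and *MAM3* are 11224 bases apart on the same chromosome. The sources used here do not say how reads that match several loci were counted. Of the 100-base windows of the exons of *CYP79F1*, 5.69% matched *CYP79F2* with at most 2 mismatches, against 6.01% of those of *CYP79F2* in *CYP79F1*, and in each gene only 1 window had an exact copy elsewhere in the genome. No window of the other 8 genes had an exact copy elsewhere or matched another member with at most 2 mismatches. *BCAT4* shares 307 bases with AT3G19700 on the opposite strand, which had 12.3 to 22.6 CPM. CPM here are counts scaled to a common library size, and whether strand was used in counting is not stated.

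The libraries held 34200225 to 40919516 counts on genes, with TMM normalization factors of 0.987 to 1.014. The mutated gene was examined first. *PRP40C* (AT3G19840, chromosome 3, 6891086 to 6897356) had 11.8, 14.0 and 12.7 CPM in the *prp40c* libraries, against 24.6, 28.1 and 22.6 CPM in the wt libraries, a log2 fold change of -0.97 (SE 0.106, adjusted p = 2.1e-05, edgeR quasi-likelihood test with Benjamini-Hochberg adjustment over all tested genes). The genotypes did not overlap, and 51.2% of the wt level, counted over the whole gene, remained in the libraries labelled prp40c -/-. By RT-PCR across the insertion, a figure caption of the study reported strongly reduced full-length mRNA in its mutant alleles. Its text calls them knockout mutants and refers to an RT-PCR check for null expression of the wild-type transcript. Counts over the whole gene do not separate full-length mRNA from partial transcripts. Among markers of other tissues, the summed level of 7 root genes was 147.4 to 160.0 CPM in *prp40c* and 137.9 to 179.9 CPM in wt, and that of 4 leaf genes was 37259 to 41617 CPM in *prp40c* and 37115 to 38626 CPM in wt. The 4 flower genes summed to 0.971 CPM or less in *prp40c* and 1.21 CPM or less in wt, and the 3 seed genes to 0.367 CPM or less in *prp40c* and 0.518 CPM or less in wt. Of these markers 13 were tested and none was called, and the seed storage gene *CRU3* had no counts in any library. In whole seedlings, fewer cells of a type and less RNA per cell cannot be told apart.

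None of the 10 aliphatic genes was called differentially expressed in *prp40c*, and only *CYP83A1* and *FMOGS-OX1*, both lower, passed the FDR threshold. A gene was called when its adjusted p (FDR) was below 0.05 and its absolute log2 fold change was above 0.58, and by edgeR's quasi-likelihood test 0 of the 10 members were called. The same rule called 813 of the 22182 genes tested (3.67%), 189 of them lower (0.852%) and 624 higher in *prp40c* (2.81%). DESeq2's Wald test also called 0 members. With the FDR threshold alone, 2 members were lower, *CYP83A1* and *FMOGS-OX1*, where 4.15% of all genes were. At an unadjusted p below 0.05, 6 members were lower, where 11.2% of all genes were. All 10 log2 fold changes were negative, as were 50.2% of those of all genes, and their median was -0.27 beside -0.00094 over all tested genes. In 3 members, *BCAT4*, *CYP79F1* and *CYP83A1*, every *prp40c* library was below every wt library, which was so for 13.5% of all genes. Summed over the 10 genes, the level was 921, 889 and 710 CPM in the *prp40c* libraries and 937, 1135 and 912 CPM in the wt libraries. The sums overlap, since *prp40c* replicate 1 lies above wt replicate 3.

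**Figure D1:**
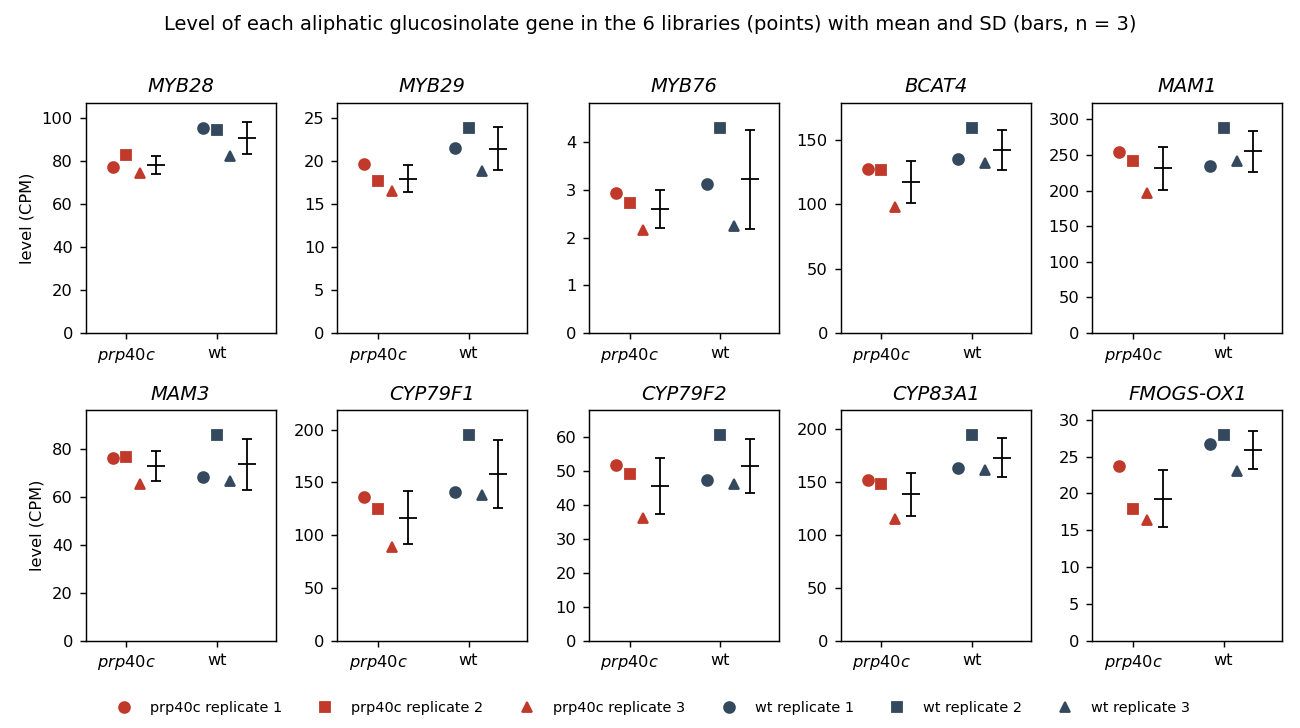
Level (CPM, each vertical axis from 0) of the 10 aliphatic glucosinolate genes in each *prp40c* library (red, left) and wt library (blue, right), with the replicate number as the symbol and the mean ± SD of 3 libraries as the black bar. *BCAT4*, *CYP79F1* and *CYP83A1* are the 3 genes without overlap, the *prp40c* replicate 3 triangle is the lowest red point in all 10 panels and the wt replicate 2 square is the highest blue point in 9.

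Levels of different genes were compared per kilobase of exonic length (RPKM). The order of the 10 genes was the same in *prp40c* and in wt, from *MAM1* (134 ± 17.5 RPKM in *prp40c* and 147 ± 16.9 RPKM in wt, SD, n = 3 each) to *MYB76* (2.57 ± 0.394 RPKM in *prp40c* and 3.17 ± 1.02 RPKM in wt). *MAM1* was 52.1 times *MYB76* in *prp40c* and 46.5 times in wt. Below *MAM1* came *BCAT4* and *CYP83A1*, then *CYP79F1*, *MYB28*, *MAM3*, *CYP79F2*, *FMOGS-OX1*, *MYB29* and *MYB76*. The neighbours *BCAT4* and *CYP83A1*, *MYB28* and *MAM3*, and *FMOGS-OX1* and *MYB29* overlapped between libraries in both genotypes. *CYP79F1* and *MYB28* overlapped in *prp40c* but not in wt, and the libraries of all other neighbours in the order were separate in both genotypes. *MYB28* was thus the most abundant of the 3 regulators per length, at 43.3 ± 2.33 RPKM in *prp40c* and 50.4 ± 4.08 RPKM in wt.

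Among the regulators, *MYB28* (AT5G61420, chromosome 5, 24689151 to 24691095), also known as HAG1 and the main activator of the pathway, had 77.5, 82.7 and 74.4 CPM in *prp40c* and 95.7, 94.6 and 82.4 CPM in wt. The highest *prp40c* library was just above the lowest wt library, and the log2 fold change was -0.22 (SE 0.0742, 95% interval -0.38 to -0.059, adjusted p = 0.0750 by edgeR). *MYB29* (AT5G07690, chromosome 5, 2446764 to 2448543), which works beside *MYB28* and matters most for short-chain products, had 19.6, 17.7 and 16.4 CPM in *prp40c*, against 21.5, 23.8 and 18.9 CPM in wt. Its genotypes overlapped, with a log2 fold change of -0.26 (SE 0.106, adjusted p = 0.146 by edgeR). *MYB76* (AT5G07700, chromosome 5, 2450325 to 2451578), the weakest of the 3 activators, had only 73 to 112 counts per library in *prp40c* and 91 to 164 in wt. This was 2.94, 2.72 and 2.16 CPM in *prp40c*, against 3.12, 4.31 and 2.25 CPM in wt. The interval of its log2 fold change was the widest of the 10 genes, -0.83 to 0.23 around -0.30 (adjusted p = 0.505 by edgeR), so that at this depth a decrease above the fold-change threshold could not be told from no difference. Within a library, *MYB28* had 3.95, 4.68 and 4.52 times the CPM of *MYB29* in *prp40c* and 4.45, 3.97 and 4.37 times in wt (difference of the mean log2 ratios 0.038, exact permutation p = 0.6, two-sided, in a design where no p below 0.1 is possible).

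Side-chain elongation is represented by *BCAT4*, *MAM1* and *MAM3*. *BCAT4* (AT3G19710, chromosome 3, 6846969 to 6849497), the aminotransferase that takes methionine into the pathway, had 127.2, 126.8 and 98.3 CPM in *prp40c* and 135.0, 159.9 and 131.9 CPM in wt. The genotypes did not overlap, and the log2 fold change was -0.28 (SE 0.0976, 95% interval -0.48 to -0.068, adjusted p = 0.0851 by edgeR). *MAM1* (AT5G23010, chromosome 5, 7703092 to 7706896), the methylthioalkylmalate synthase of the early elongation cycles, had 254.1, 242.1 and 196.8 CPM in *prp40c* and 234.8, 288.4 and 241.4 CPM in wt. *MAM3* (AT5G23020, chromosome 5, 7718121 to 7721839), the synthase that also makes long chains, had 76.3, 76.8 and 65.6 CPM in *prp40c* and 68.3, 86.0 and 66.8 CPM in wt. Both synthases overlapped between genotypes. Their log2 fold changes were -0.14 for *MAM1* (95% interval -0.35 to 0.062, adjusted p = 0.400) and -0.015 for *MAM3* (95% interval -0.22 to 0.18, adjusted p = 0.947, both by edgeR), and both intervals lie inside the fold-change threshold of 0.58. Within a library, *MAM1* had 3.33, 3.15 and 3.00 times the CPM of *MAM3* in *prp40c*, and 3.44, 3.35 and 3.61 times in wt. The 3 ratios of *prp40c* were all below the 3 of wt, a difference of -0.13 in log2 (exact permutation p = 0.1, two-sided, the smallest that 3 against 3 libraries allow, and 0.15 adjusted over the 3 pairs of genes compared).

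The core thioglucoside is started by *CYP79F1* and *CYP79F2*, which turn chain-elongated methionine into aldoximes, and by *CYP83A1*, which oxidizes these aldoximes. *CYP79F1* (AT1G16410, chromosome 1, 5608807 to 5611426), which accepts short and long chains, had 136.2, 125.0 and 88.8 CPM in *prp40c* and 140.8, 194.8 and 138.0 CPM in wt. The genotypes did not overlap, although *prp40c* replicate 1 lay just under the lowest wt library. Its log2 fold change was -0.44 (SE 0.140, 95% interval -0.73 to -0.14, adjusted p = 0.0574 by edgeR). Without *prp40c* replicate 3 it was -0.27 and without wt replicate 2 it was -0.26, and with 1 of the other libraries left out it lay between -0.56 and -0.49. *CYP79F2* (AT1G16400, chromosome 1, 5605159 to 5607473), which accepts long chains, had 51.5, 48.9 and 36.2 CPM in *prp40c* and 47.1, 60.4 and 46.2 CPM in wt. It overlapped between genotypes, with a log2 fold change of -0.17 (95% interval -0.43 to 0.090, adjusted p = 0.435 by edgeR). *CYP83A1* (AT4G13770, chromosome 4, 7990485 to 7992311) had 151.8, 148.1 and 115.1 CPM in *prp40c* and 163.5, 194.5 and 161.5 CPM in wt, without overlap. It was 79.9% of wt by its log2 fold change of -0.32 (SE 0.0987, 95% interval -0.53 to -0.11), with an adjusted p of 0.0458 by edgeR that passed the FDR threshold at a fold change under the threshold for a call. The promoter of *CYP83A1*, printed above, holds both motifs, and that of *CYP79F1* holds neither.

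The neighbours *CYP79F1* and *CYP79F2* differed in proportion between the genotypes in these libraries, in a design too small for the test to pass 0.05. Within a library *CYP79F1* had 2.64, 2.56 and 2.46 times the CPM of *CYP79F2* in *prp40c*, and 2.99, 3.22 and 2.99 times in wt. The highest ratio of *prp40c* was below the lowest of wt. For levels of single genes, 29% of all tested genes had no overlap between the genotypes, in either direction. The share for ratios of gene pairs, here and for *MAM1* to *MAM3*, was not counted. The mean log2 ratio was 1.35 ± 0.0526 in *prp40c* and 1.62 ± 0.0627 in wt (SD, n = 3 each), a difference of -0.27 (exact permutation p = 0.1, two-sided, the smallest possible here, and 0.15 adjusted over the 3 pairs). With any 1 library left out, the difference stayed between -0.29 and -0.23. The ratio is taken within a library and does not depend on the scaling between libraries.

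Side-chain modification is represented by *FMOGS-OX1* (AT1G65860, chromosome 1, 24499066 to 24502745), a flavin monooxygenase that oxidizes the sulfur of methylthioalkyl glucosinolates. It had 23.7, 17.8 and 16.3 CPM in *prp40c* and 26.7, 27.9 and 23.05 CPM in wt. Replicate 1 of *prp40c* lay above the lowest wt library, so the genotypes overlapped. The log2 fold change was -0.42 (SE 0.125, 95% interval -0.69 to -0.16), or 74.6% of wt, with an adjusted p of 0.0394 by edgeR. Without *prp40c* replicate 1 it was -0.60 (adjusted p = 0.0026 by edgeR) and this gene was called, the only member called in any fit with both thresholds. With either *prp40c* replicate 2, *prp40c* replicate 3, wt replicate 1 or wt replicate 2 left out, no member kept an adjusted p below 0.05, and without wt replicate 3 it was below 0.05 in 5 members. The share of all genes below 0.05 was not counted in these fits, so the member counts have no share to be set against. The fold changes were not all smaller in the 4 fits where no member was below 0.05. Without *prp40c* replicate 2 the log2 fold change was -0.37 for *FMOGS-OX1* and -0.38 for *CYP83A1*, and without wt replicate 1 it was -0.40 for *FMOGS-OX1* and -0.37 for *CYP83A1*. Without *prp40c* replicate 3 it was -0.32 for *FMOGS-OX1* and -0.21 for *CYP83A1*, and without wt replicate 2 it was -0.36 for *FMOGS-OX1* and -0.23 for *CYP83A1*.

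The 10 genes varied together between libraries of the same genotype. *prp40c* replicate 3 was the lowest *prp40c* library in 10 of 10 members, which was so for 33.5% of all genes. In wt, replicate 2 was the highest library in 9 of 10 members, with *MYB28* the exception, and for 33.6% of all genes. Both held in 9 of 10 members and in 11.1% of all genes. Among the members above 10 CPM *CYP79F1* differed most, with *prp40c* replicate 3 at 68.0% of the mean of the other *prp40c* libraries and wt replicate 2 at 140% of the mean of the other wt libraries. For *MYB28* the corresponding values were 92.9% in *prp40c* and 106% in wt. In the 9 members above 10 CPM, the median coefficient of variation was 14.1% over the *prp40c* libraries and 11.5% over the wt libraries. Over the 13208 genes above 10 CPM it was 5.75% in *prp40c* and 6.92% in wt. Averaged over those 9 members, the log2 CPM relative to the mean of each gene was 0.024, -0.060 and -0.35 in the *prp40c* libraries and 0.074, 0.31 and -0.0054 in the wt libraries. *prp40c* replicate 3 had the fewest counts of the 6 libraries (34200225). The root markers summed to 147.6, 160.0 and 147.4 CPM in the *prp40c* libraries and 169.0, 179.9 and 137.9 CPM in the wt libraries, with wt replicate 2 again the highest. The markers of guard and myrosin cells summed to 3627, 3779 and 4169 CPM in the *prp40c* libraries and 3455, 3256 and 3384 CPM in the wt libraries. Replicate 3 was the highest *prp40c* library in each of these 3 markers, whereas wt replicate 2 was the lowest wt library for *TGG1* only and the highest for *FAMA* and *TGG2*. The leaf markers summed to 37259 CPM in *prp40c* replicate 1, 39140 CPM in replicate 2 and 41617 CPM in replicate 3, against 37115 to 38626 CPM in wt. Within that list *RBCS1A* was lower in every *prp40c* library than in every wt library and *LHCB1.3* higher, neither of them called. The part of depth and of these cell types in the pattern was not tested.

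**Figure D2:**
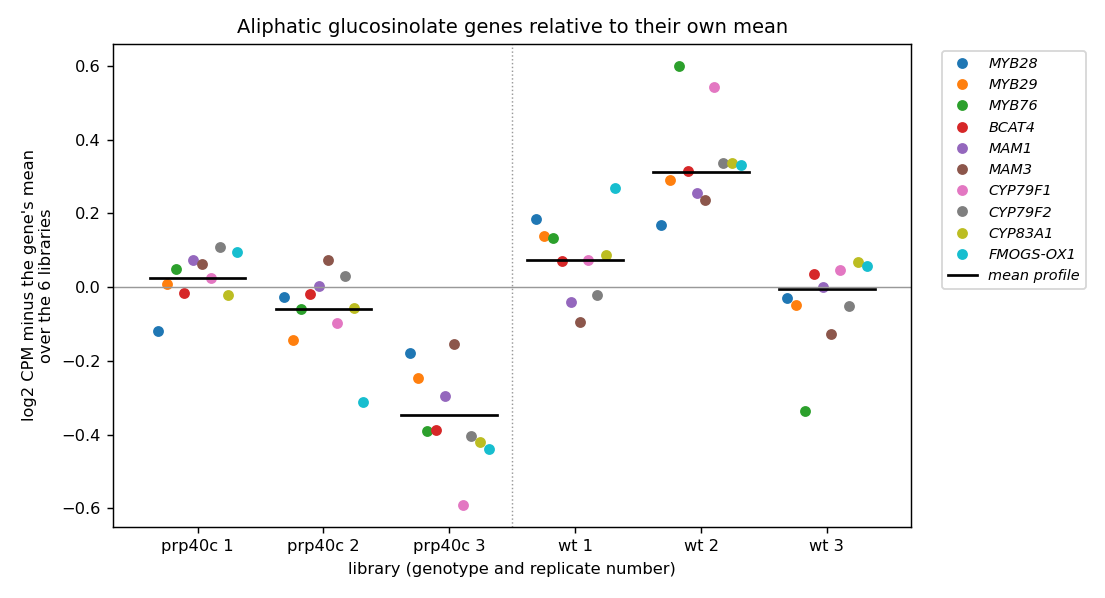
The log2 CPM of each member minus its own mean over the 6 libraries (vertical axis), by library, with *prp40c* on the left and wt on the right of the dotted line and the mean of the 9 members above 10 CPM as a black bar. The mean is -0.35 in *prp40c* replicate 3 and 0.31 in wt replicate 2, and between -0.060 and 0.074 in the other 4 libraries.

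These 2 libraries were singled out in the same genes, so leaving them out has to make a negative difference smaller and is no test of it. Without *prp40c* replicate 3 the median log2 fold change of the 10 genes was -0.18, and without wt replicate 2 it was also -0.18, with 9 of 10 genes lower in each fit and *MAM3* higher. Without both of them, an alternative chosen after the values had been seen, the median was -0.083, 6 of 10 genes were lower and none had an adjusted p below 0.05 by edgeR. In that fit *MYB76* (0.080), *MAM1* (0.059), *MAM3* (0.18) and *CYP79F2* (0.11) had positive log2 fold changes. *FMOGS-OX1* (-0.26 without both libraries), *MYB28* (-0.15), *CYP83A1* (-0.12), *MYB29* (-0.11), *CYP79F1* (-0.095) and *BCAT4* (-0.071) kept a negative one. With 1 of the other 4 libraries left out the median was more negative than with all 6, at -0.33 without *prp40c* replicate 1, -0.30 without *prp40c* replicate 2, -0.285 without wt replicate 1 and -0.33 without wt replicate 3, and all 10 genes were lower in each of these fits. What set the 2 libraries apart was not tested.

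**Figure D3:**
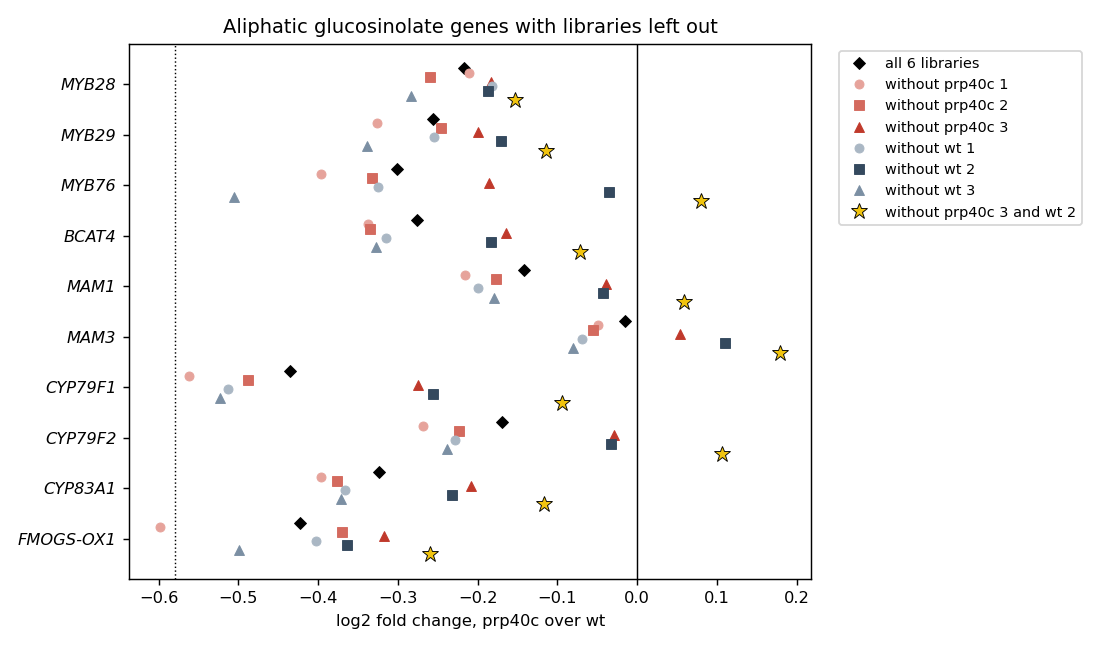
Log2 fold change of each member, *prp40c* over wt, with all 6 libraries (black diamond), with 1 library left out (red symbols for *prp40c*, blue for wt, darker for *prp40c* replicate 3 and wt replicate 2) and with *prp40c* replicate 3 and wt replicate 2 both left out (star). The dotted line marks the fold-change threshold for a lower level, and the stars lie between -0.26 and 0.18.

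The genes whose centred profile over the 6 libraries was most like the mean of the members were sought among 13199 genes above 10 CPM. The nearest was *MS2* (AT3G03780), a cytosolic methionine synthase, with a root-mean-square difference of 0.0326 in log2 CPM. It had 253.6, 231.2 and 192.6 CPM in *prp40c* and 260.0, 321.3 and 251.6 CPM in wt. Next came *NAS1* (AT5G04950), a nicotianamine synthase, at 0.0358, AT2G33845 at 0.0362, *AHL19* (AT3G04570), an AT-hook protein gene, at 0.0406, and *UGT74C1* (AT2G31790) at 0.0463. *UGT74C1* is a glucosyltransferase of the aliphatic core pathway and belongs to the wider lists described next. This likeness is over 6 libraries and includes the difference between the genotypes.

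Of 57 further glucosinolate genes in 7 lists, 54 were tested and 5 were called, 1 lower and 4 higher in *prp40c*, where 3.67% of all genes were called. The lists that continue the aliphatic pathway leaned as the 10 members did. All 7 further chain elongation genes, among them the isopropylmalate isomerase and dehydrogenase subunits shared in part with leucine synthesis, had negative log2 fold changes with a median of -0.22. None was called, and *IPMI-SSU2* had the most negative value, -0.35 (adjusted p = 0.0220 by edgeR). Of 8 core structure genes, 7 were negative with a median of -0.23 and none was called. The most negative was *SOT17*, a sulfotransferase that completes the core, at -0.51 (adjusted p = 0.0396 by edgeR). *prp40c* replicate 3 was the lowest *prp40c* library for 7 of the 7 chain elongation genes and 8 of the 8 core structure genes, and for 33.5% of all genes. It was also the lowest for 7 of the 7 sulfate activation genes, a list with a positive median (0.10), and for 5 of the 7 side-chain modification genes tested. In the other lists this held for 3 of 8 transport and breakdown genes, 2 of 7 upstream regulators and 2 of 10 indolic genes. These values share libraries with those of the members.

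Side-chain modification held the only gene of these lists that was called lower. *AOP2* (AT4G03060), a dioxygenase that forms alkenyl side chains in other accessions and is annotated as a truncated, null allele in Col-0, fell to 12.6, 10.4 and 6.76 CPM in *prp40c*, against 14.96, 18.7 and 16.9 CPM in wt. Its log2 fold change was -0.76 (SE 0.169, adjusted p = 0.0081 by edgeR). Without *prp40c* replicate 3 it was -0.55, under the threshold for a call, and without both libraries named above -0.47 (adjusted p = 0.0763 by edgeR). Of the 7 genes tested on this list, 5 were negative, with a median of -0.15. The paralogs of *FMOGS-OX1* had log2 fold changes of 0.11 for *FMOGS-OX2*, -0.16 for *FMOGS-OX3*, 0.027 for *FMOGS-OX4* and -0.045 for *FMOGS-OX5*, none of them past the FDR threshold. *AOP3* had no counts in any library, and *BZO1* was too low to be tested.

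Of the 7 upstream regulators, with a median log2 fold change of 0.28, 2 were called and 5 were not. *SDI1* (AT5G48850) and *SDI2* (AT1G04770), sulfur deficiency-induced proteins that restrain aliphatic glucosinolate synthesis, rose in *prp40c*. *SDI1* had 9.47, 14.9 and 9.72 CPM in *prp40c* and 8.29, 6.44 and 6.46 CPM in wt (log2 fold change 0.69, adjusted p = 0.0182 by edgeR). *SDI2* had 44.5, 43.1 and 34.8 CPM in *prp40c* and 22.6, 28.5 and 27.6 CPM in wt (log2 fold change 0.64, adjusted p = 0.0010 by edgeR). *SDI1* lost its call without *prp40c* replicate 2 (0.44), without wt replicate 2 (0.63, adjusted p = 0.0575 by edgeR) and without both wt replicate 2 and *prp40c* replicate 3 (0.73, adjusted p = 0.0703 by edgeR), in the last 2 fits by the p alone. *SDI2* fell below the fold-change threshold without *prp40c* replicate 1 (0.57) or wt replicate 1 (0.54). The bHLH partners of the MYB factors were not called, with log2 fold changes of 0.32 for *MYC2* (adjusted p = 0.0511), 0.077 for *MYC3* and -0.24 for *MYC4* (adjusted p = 0.0963, all by edgeR).

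The remaining 3 lists had positive medians. Of the 8 transport and breakdown genes tested, 7 had positive log2 fold changes with a median of 0.10 and none was called. The largest was that of *TGG2*, a myrosinase of guard and myrosin cells, at 0.27 (adjusted p = 0.0248 by edgeR). The 3 guard and myrosin cell markers summed above are *FAMA*, *TGG1* and *TGG2*, so that the myrosinases make up most of that sum. The 7 sulfate activation genes had a median of 0.10 with none called, and the largest was *APR3*, an adenylylsulfate reductase, at 0.32 (adjusted p = 0.0445 by edgeR). Of these 7 genes 5 had positive log2 fold changes and 2 negative ones, *APK1* at -0.23 and *APK2* at -0.20. The 10 indolic genes had a median of 0.040. Among them *MYB51* (AT1G18570), an activator of indolic glucosinolates, rose to 25.1, 28.6 and 30.2 CPM in *prp40c*, against 10.5, 12.8 and 10.9 CPM in wt (log2 fold change 1.29, adjusted p = 1.0e-06 by edgeR). *CYP81F2* (AT5G57220), which modifies the indole ring, rose to 13.3, 18.1 and 23.9 CPM in *prp40c*, against 5.53, 6.12 and 5.16 CPM in wt (log2 fold change 1.72, adjusted p = 1.0e-05 by edgeR). *MYB34*, another activator of this branch, was at -0.43 (adjusted p = 0.0131 by edgeR, under the fold-change threshold). The other indolic enzymes tested had log2 fold changes between -0.19 for *CYP79B2* and 0.095 for *CYP79B3*. *CYP83B1*, the indolic counterpart of *CYP83A1*, was at -0.031 (adjusted p = 0.868 by edgeR), and whether the 2 differ in their change was not tested.

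**Figure D4:**
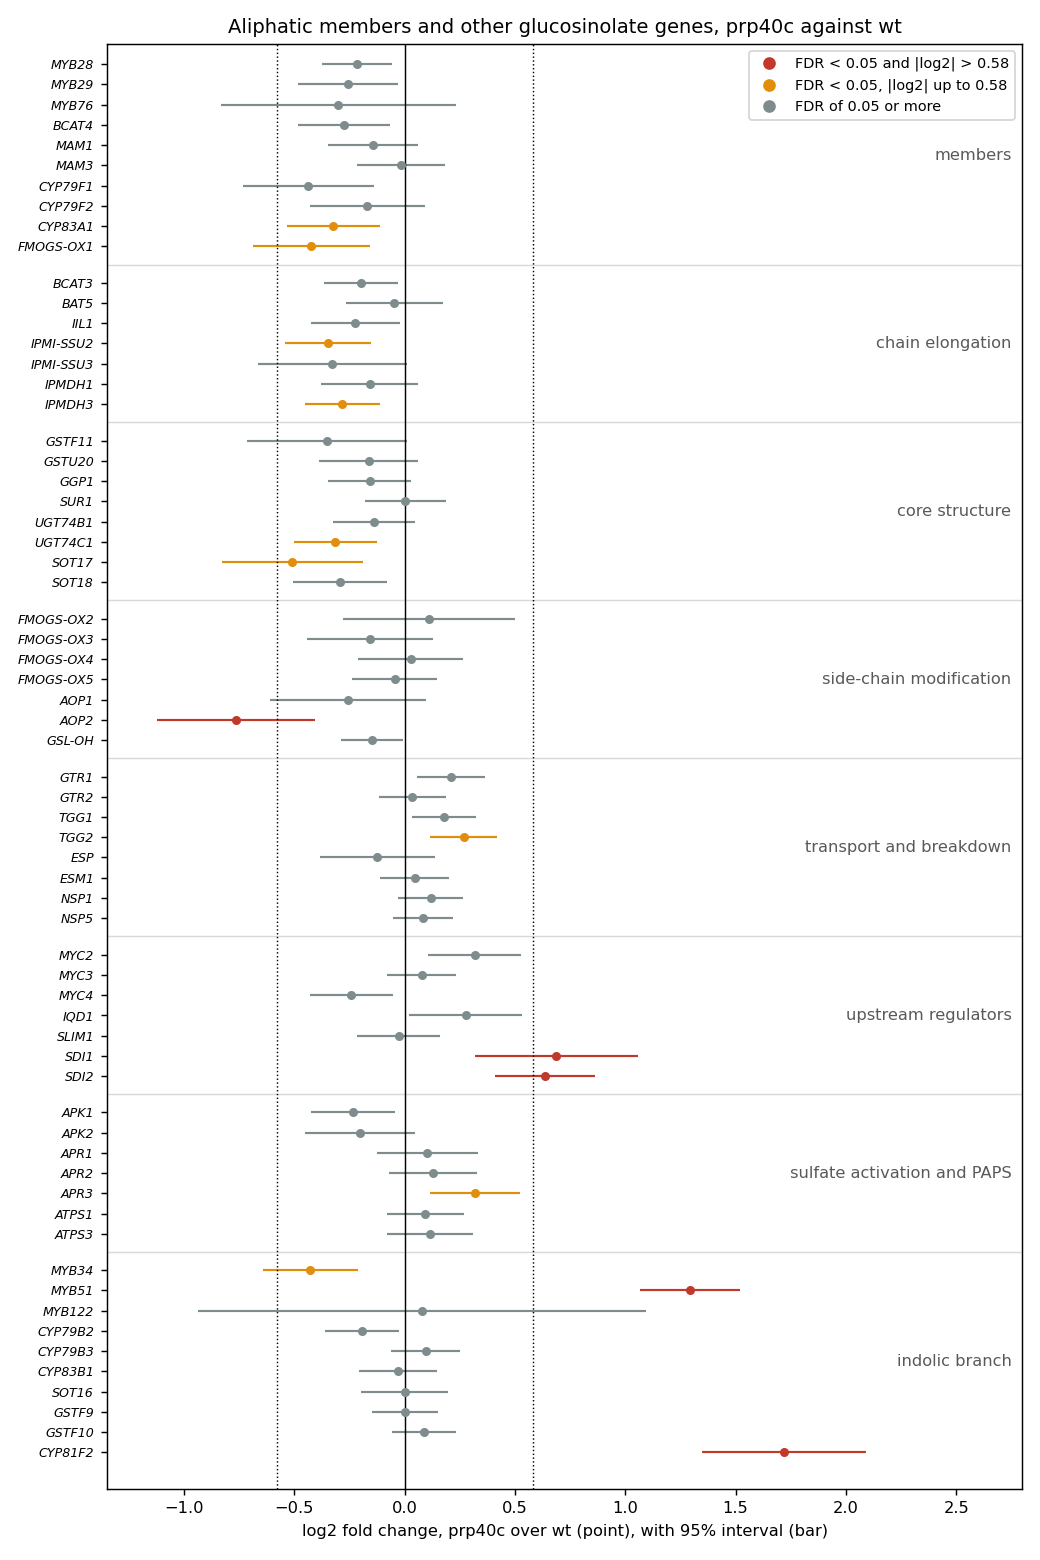
Log2 fold change (*prp40c* over wt, horizontal axis) with its 95% interval for the 10 members, at the top, and for the 54 tested genes of the wider lists by pathway step. The dotted lines mark 0.58 in either direction, red points are called, orange points pass the FDR threshold only. All 10 member points lie between -0.44 and -0.015, and the called genes are *AOP2*, *SDI1*, *SDI2*, *MYB51* and *CYP81F2*.

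Since the mutated gene is related to splicing factors, the introns of the members were examined. For each intron, reads over its 2 boundaries with the exons were compared with its spliced reads, and the unspliced share is the boundary reads over the boundary reads plus the spliced reads weighted by 2. The members have 43 introns with counts, of which 21 in 8 genes had enough reads to be tested. *MYB76* and *FMOGS-OX1* had none. No member intron was called at an FDR below 0.15 and a log2 change above 0.58, and neither was any of the 13735 introns tested in all (0%) by edgeR's interaction test. With DESeq2's Wald test 118 introns were called in all and 0 in the members. At an unadjusted p below 0.05 there was 1 member intron, where 1455 of all tested introns were (10.6%). This count varied with the libraries used. It was 0 of 19 member introns without wt replicate 1 (1323 of 14234 over all introns) and 4 of 23 without wt replicate 3 (1350 of 14211). Without *prp40c* replicate 1 it was 2 of 24 (1466 of 14148), and without *prp40c* replicate 3 it was 2 of 22 (1411 of 14565). Without *prp40c* replicate 2 it was 3 of 19 (1474 of 14199), and without wt replicate 2 it was 3 of 22 (1350 of 14485). With column totals as library sizes it was 3 of 21 (1407 of 13735), and with a minimum of 10 reads 2 of 8 (927 of 6329). Of the 21 member introns, 13 had a negative log2 change of boundary relative to spliced reads, as had 42% of all tested introns. This count is tied to the filter, a mean of 5 boundary reads in at least 1 genotype. Some introns reached it in wt only, such as *CYP83A1* intron 1 with 8 boundary reads in *prp40c* and 28 in wt. Fewer reached it in *prp40c* only, such as *MAM1* intron 8 with 30 in *prp40c* and 14 in wt. The filter favours a negative change in the former and a positive one in the latter.

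The member intron with an unadjusted p below 0.05 was intron 5 of *MAM3*, printed here with its splice-site dinucleotides in capitals, together with the intron of *MYB28* that is annotated as retained in a transcript of that gene.
*MAM3* intron 5 (chr5:7720596-7720702, plus strand): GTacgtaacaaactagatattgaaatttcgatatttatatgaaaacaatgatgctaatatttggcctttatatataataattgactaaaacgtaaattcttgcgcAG
*MYB28* annotated retained intron (chr5:24690583-24690662, minus strand): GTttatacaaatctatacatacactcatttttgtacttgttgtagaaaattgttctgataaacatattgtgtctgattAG

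*MAM3* intron 5 (107 bases) had 0 boundary reads in each *prp40c* library, against 10, 0 and 6 in the wt libraries, beside 291, 283 and 221 spliced reads in *prp40c* and 253, 307 and 254 in wt. The pooled unspliced share was 0% in *prp40c*, which with 795 spliced reads allows a share of up to 0.188%, and 0.973% in wt (unadjusted p = 0.0183 and adjusted p = 0.397 by the edgeR interaction test across all introns). The difference rests on 16 reads in 2 wt libraries. This intron reached the minimum mean of 5 boundary reads in wt only, where its share was higher. Its unadjusted p is therefore not independent of the filter that let it be tested. The annotated retained intron of *MYB28* (80 bases) had 38, 10 and 9 boundary reads and 247, 218 and 145 spliced reads in *prp40c*, against 19, 31 and 21 boundary reads and 295, 281 and 227 spliced reads in wt. Its unspliced share was 7.14%, 2.24% and 3.01% in *prp40c* and 3.12%, 5.23% and 4.42% in wt, with full overlap (log2 change -0.12, adjusted p = 0.958 by edgeR). It was the least completely spliced of the tested introns of *MYB28*, whose other intron had a pooled share of 0.664% in *prp40c* and 0.844% in wt.

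Summed over all introns of a gene, the unspliced share of 3 members was lower in every *prp40c* library than in every wt library. This was so for 4.89% of the 10163 genes with enough reads in sum, and the opposite for 10.4% of them and for 0 members. The minima were those for introns, a mean of 5 spliced reads in each genotype and 5 boundary reads in at least 1. *CYP83A1* and *FMOGS-OX1* reached the minimum of boundary reads in wt only, so the filter itself favours a lower *prp40c* share in these genes. *CYP79F2*, with 2 introns, had 1.47%, 1.07% and 0.518% unspliced in *prp40c* and 2.41%, 1.63% and 2.51% in wt. *CYP83A1*, with 1 intron, had 0.358%, 0.982% and 0.326% in *prp40c* and 1.53%, 1.24% and 1.72% in wt. *FMOGS-OX1*, with 6 introns, had 0.471%, 0.133% and 0% in *prp40c*, from 6 boundary reads in all, and 0.753%, 0.868% and 0.843% in wt, from 31. The largest of these shares is 2.51%, and the intron of *CYP83A1* rested on 8 boundary reads in *prp40c* and 28 in wt (adjusted p = 0.509 by edgeR). The pooled share was lower in *prp40c* in 7 of the 9 members with enough reads, as it was in 41.4% of all such genes. *MAM1* had 0.759% in *prp40c* and 0.583% in wt, and *MAM3* 0.631% in *prp40c* and 0.616% in wt. *CYP79F1*, among the 7 with a lower pooled share, also reached the minimum in wt only, with 10 boundary reads in *prp40c* and 26 in wt. The upper limit given above for the unspliced share of *MAM3* intron 5 covers counting error only.

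**Figure D5:**
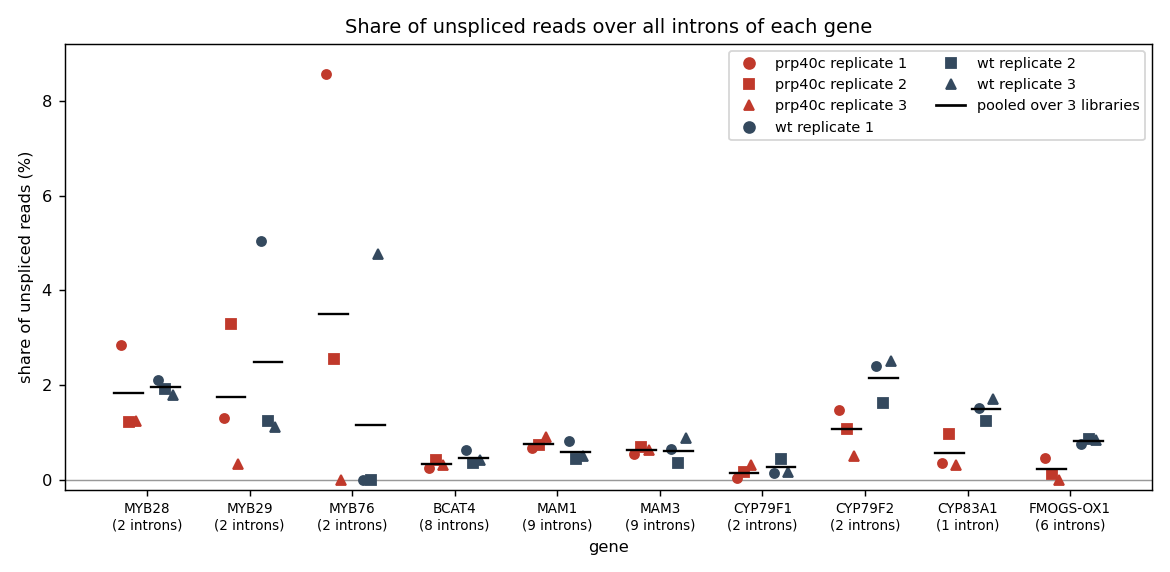
Share of unspliced reads (%) summed over all introns of each member, for the *prp40c* libraries (red, left) and the wt libraries (blue, right) of each gene, with the share pooled over the 3 libraries as a black bar. *CYP79F2*, *CYP83A1* and *FMOGS-OX1* show no overlap, and *MYB76*, with 4 boundary reads in *prp40c* and 2 in wt, was too low to compare.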

How the data were processed

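Per the labels and the study's methods, the authors purified poly(A) RNA from whole seedlings, prepared TruSeq libraries and mapped paired reads to TAIR10 with TopHat2 2.1.1 and SAMtools 1.3. The deposited counts per gene and per junction were made by the authors with custom R scripts and are not normalized. Here, genes averaging 10 counts or more in either genotype were fitted in edgeR 4.0.16 (R 4.3.3) with TMM scaling and genotype as the only term. Introns needed a mean of 5 spliced reads in each genotype and 5 boundary reads in at least 1. DESeq2 1.42.0, other scalings, filters and left-out libraries were tried as alternatives. Scripts were tested on simulated data, whose spread between libraries was set and not taken from these data. There, genes with a simulated log2 change of -0.3 passed the FDR threshold in 18% of cases and those with 0.3 in 12%. Changes of -1 and 1 passed in 100%. The members, lists and tests were chosen with earlier results of these data known. All members were named. From each wider list the called genes, or else the largest change, were named, with others to complete a step. The 3 libraries of a genotype are biological replicates per the study. Of 93910 introns of the junction counts placed on TAIR10.1, 98.9% began and ended with GT and AG on either strand. Its sequence was therefore read at the TAIR10 coordinates of the files. Gene names are from TAIR symbols and the RefSeq annotation.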

Additional observations from a re-analysis of the deposited data

How the results depend on the processing

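Replicate numbers did not pair the libraries: the correlations of same-numbered libraries were -0.041, 0.17 and -0.031. With a replicate block, 819 genes, 0 members and 5 wider list genes were called, and 4 members (*BCAT4*, *CYP79F1*, *CYP83A1*, *FMOGS-OX1*) had an adjusted p below 0.05. The same 4 had it with no filter on low counts. The share of all genes below 0.05 was not counted in either fit, so these counts cannot be read as particular to the members. Leaving out 1 library gave 567 to 919 called genes, 107 to 239 of them lower, 0 or 1 called members (1 without *prp40c* replicate 1) and 4 to 6 called wider list genes. Without both *prp40c* replicate 3 and wt replicate 2, chosen after seeing the data, 537 genes (95 lower) and 3 wider list genes were called. With no fold-change threshold, 2485 genes (921 lower, 1564 higher), 2 members and 12 wider list genes passed. Log2 fold changes changed sign without both libraries for *MYB76* (0.080), *MAM1* (0.059), *MAM3* (0.18) and *CYP79F2* (0.11), and for *MAM3* without *prp40c* replicate 3 (0.054) or wt replicate 2 (0.11, within a range of -0.081 to 0.11 over left-out single libraries). The log2 ratio of *MYB28* to *MYB29* changed sign without *prp40c* replicate 2 (-0.011) or wt replicate 2 (-0.012). The cause was not tested. Called introns numbered 137 with a minimum of 10 reads, 9 with column totals as library sizes and 118 with DESeq2, none of them in a member. The cause was not tested. Depth limits *MYB76* (73 to 164 counts) and introns with few boundary reads.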
